A study of Mus musculus with 10 samples.

Results

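The genes described here take up, store, export and sense iron or break down haem. They were chosen by symbol from the deposited count table of a mouse acute lymphoblastic leukaemia line, as 10 of 29955 listed genes, and all 10 were found. All 10 passed the filter on low counts, as did 12282 genes in all. The members are Tfrc, Slc11a2 and Slc11a1 (uptake), Fth1 and Ftl1 (storage), Slc40a1 (export), Hmox1 and Hmox2 (haem breakdown), and Aco1 and Ireb2 (sensing). They were picked by role, with earlier results known in which Hmox1 stood higher and Tfrc lower at the first dasatinib step. For that reason the levels at this step are given as a description, no p-value is printed for the members there, and nothing is read from their count of calls.

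The line carries BCR-ABL1 in its p185 form, the fusion kinase of the Philadelphia chromosome, and all groups share this oncogene. Dasatinib inhibits ABL and SRC family kinases. Lines were derived from the parental line by growing it out at rising doses of the drug, given as multiples of the IC90, a strongly inhibitory concentration. Whether drug was present at harvest is not given in the sources used here. There were 3 libraries of lines grown out under dasatinib at step 1x, 3 at step 16x, 1 library of a line taken through step 1x in DMSO, the vehicle, 1 of a line taken through step 16x in DMSO, and 2 libraries of the untreated parental line. The parental and DMSO libraries are called drug-free (n = 4). Only the dasatinib libraries are titled biological replicates, and nothing in the labels says that they came from separate cultures. The p-values therefore measure the spread between these samples, which may be technical within a group. Where drug-free, dasatinib 1x and dasatinib 16x were fitted as 3 classes, that spread also includes differences between the parental line and the DMSO lines. The fitted coefficient of variation between libraries was 15.3% in the 3 classes and 7.27% in the 5 groups. The age, sex and strain of origin of the line are not given in the sources used here.

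Iron reaches a proliferating cell mainly as iron-loaded transferrin, which the transferrin receptor (Tfrc) carries into endosomes, where the divalent metal transporter (Slc11a2) passes iron to the cytosol. What is not used is stored in ferritin, a shell of heavy (Fth1) and light (Ftl1) chains, or leaves through ferroportin (Slc40a1). Haem oxygenases open the haem ring and release its iron, Hmox1 as the stress-inducible enzyme and Hmox2 as the constitutive one. The iron regulatory proteins IRP1 (Aco1) and IRP2 (Ireb2) bind hairpins called iron-responsive elements. In a 5′ UTR the bound hairpin blocks translation, and in the 3′ UTR of the Tfrc mRNA it protects the transcript from decay.

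The hairpins are shown because the members with a match hold it in either the 5′ or the 3′ UTR of the mRNA. Binding was not measured. The search was for 17 letters on the sense strand of annotated UTRs, a C, then any 5 bases, the 6-base loop CAGTGN and any 5 bases, in which the 5 bases on each side of the loop pair by Watson-Crick or G-U rules. Capitals mark the loop, and the first letter is the unpaired C below the upper stem. Sequences and positions are those of GENCODE vM21 on GRCm38, whereas the counts were made against mm9.
Tfrc 3′ UTR, chr16:32631225-32631241, plus strand: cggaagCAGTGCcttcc
Tfrc 3′ UTR, chr16:32631604-32631620, plus strand: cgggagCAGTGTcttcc
Tfrc 3′ UTR, chr16:32631669-32631685, plus strand: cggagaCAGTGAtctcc
Tfrc 3′ UTR, chr16:32631716-32631732, plus strand: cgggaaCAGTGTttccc
Fth1 5′ UTR, chr19:9982738-9982754, plus strand: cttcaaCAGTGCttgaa
Ftl1 5′ UTR, chr7:45459785-45459801, minus strand: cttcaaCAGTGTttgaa
Slc40a1 5′ UTR, chr1:45925471-45925487, minus strand: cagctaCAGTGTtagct

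These 7 matches fell in 4 of the 10 members. Among protein-coding genes with such an annotated UTR, 0.151% held a match in the 5′ UTR and 0.615% in the 3′ UTR. The matches of Fth1 and Ftl1 have the same stem letters. For the other members, Slc11a2 included, no match says only that these letters with this pairing are not in the annotated UTRs.

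Library totals ran from 29049760 to 45813092 counts. The cells carried the transcripts of B cell precursors, with 12 of 13 markers reaching at least 1 CPM in some library and Ebf1 at no more than 0.717 CPM. Their summed level was 4208 to 4411 CPM in dasatinib 1x, 4197 to 4303 CPM in dasatinib 16x and 4366 to 4771 CPM in the drug-free libraries. The sum hides members that differed, as 5 of the 13 were called lower at 16x against drug-free, among them Pax5 and Rag1. The recombinase gene Rag1 had 5.12 ± 3.09 CPM in dasatinib 16x and 56.7 ± 25.8 CPM drug-free (adjusted p = 0.00358 by edgeR), and Dntt, the terminal transferase, 75.0 ± 48.2 CPM in dasatinib 16x and 19.1 ± 12.1 CPM drug-free (adjusted p = 0.0781). Their part in the changes below was not tested. CPM are counts scaled to library size after TMM normalization. Together the 10 members took 0.298 to 0.306% of all counts in dasatinib 1x, 0.302 to 0.341% in dasatinib 16x and 0.253 to 0.272% in the drug-free libraries. In bulk RNA, fewer cells that express a gene and less RNA of it per cell cannot be told apart.

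Levels of different genes are compared per kilobase of the longest principal transcript in GENCODE vM21. On that scale, as means over all 10 libraries, Ftl1 (888 CPM per kb) and Fth1 (604) stood first, followed by Tfrc (174). Ireb2 (33.5) and Hmox2 (27.8) came next, then Aco1 (13.0) and Slc11a2 (6.55). Hmox1 (4.50), Slc11a1 (1.24) and Slc40a1 (0.160) were lowest. The inducible haem oxygenase thus stood below the constitutive one in the mean, and the endosomal transporter Slc11a2 above its phagosomal paralog Slc11a1.

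**Figure D1:**
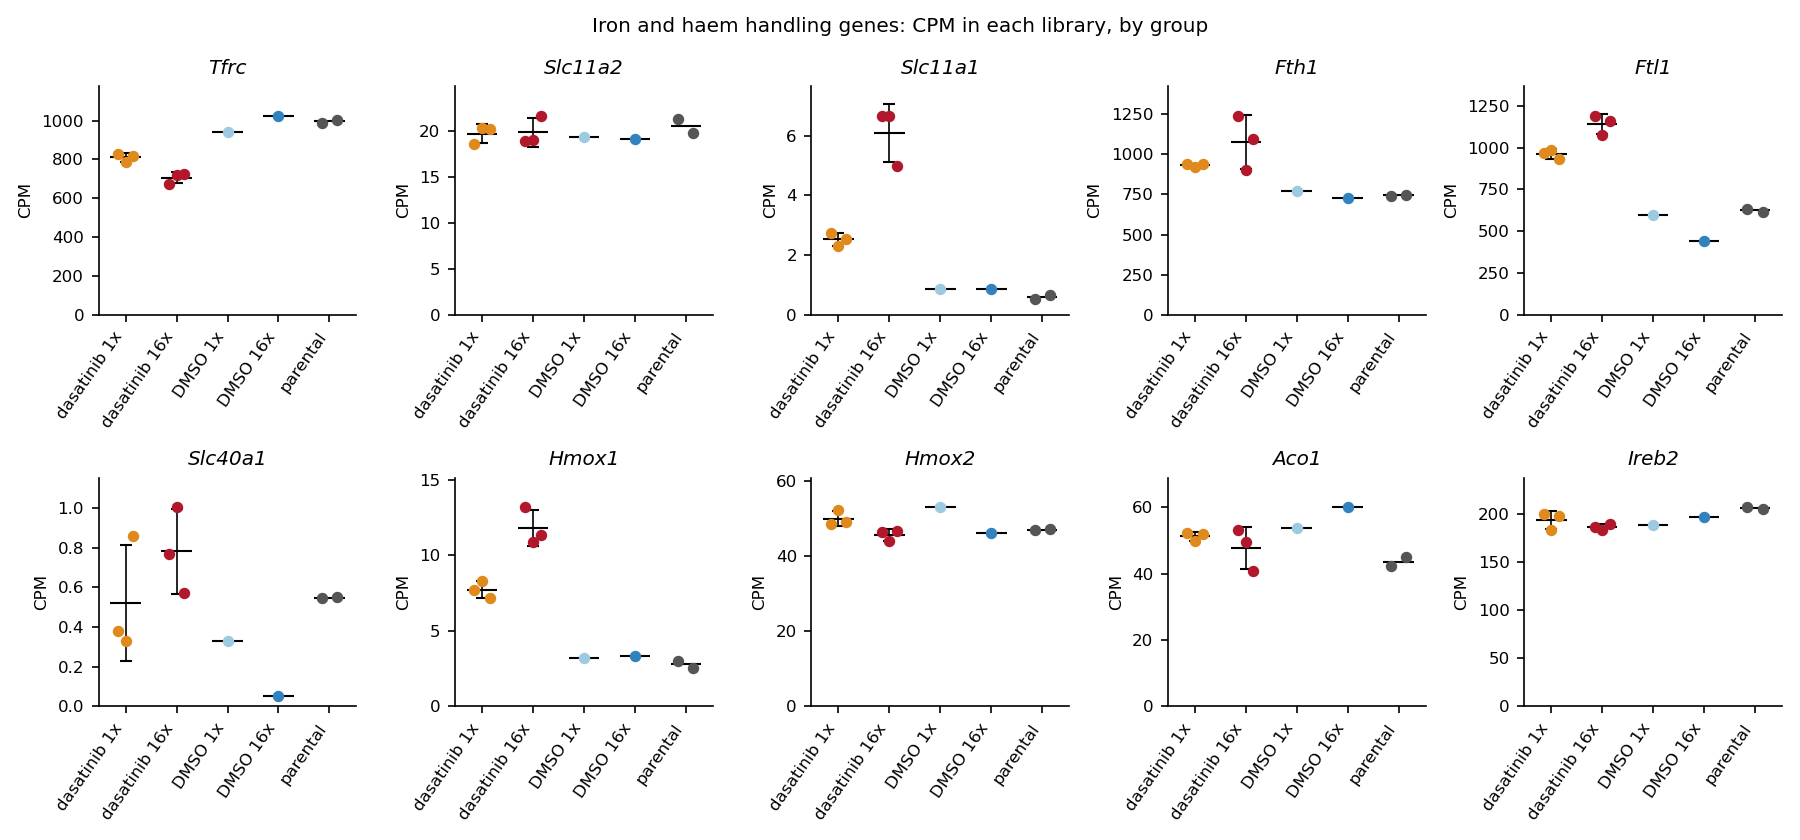
Level of each of the 10 genes in CPM (vertical axis, from 0) in every library, by group along the horizontal axis. Points are libraries, horizontal lines are group means and bars the SD of the groups of 3. Slc11a1, Hmox1, Ftl1 and Fth1 stand higher and Tfrc lower in every dasatinib library than in every drug-free one. Slc11a2 lies between 18.5 and 21.6 CPM throughout.

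At step 1x Tfrc stood lower, and the ferritin genes, Slc11a1 and Hmox1 higher, than in the drug-free libraries. Tfrc had 828, 785 and 816 CPM in dasatinib 1x A, B and C, against 940 CPM in DMSO 1x, 1024 in DMSO 16x, and 987 and 1004 in parental A and B. Every dasatinib 1x library lay below every drug-free one, with a log2 change of -0.29 ± 0.04 (SE). Slc11a2 averaged 19.7 ± 1.01 CPM in dasatinib 1x (SD, n = 3) and 19.9 ± 0.968 CPM in the drug-free libraries (SD, n = 4), and the groups overlapped. Slc11a1, known from macrophages as the phagosomal metal transporter NRAMP1, had 2.72, 2.29 and 2.55 CPM in dasatinib 1x, against 0.876 CPM in DMSO 1x, 0.858 in DMSO 16x, and 0.511 and 0.670 in the parental libraries. Its groups did not overlap (log2 change 1.78 ± 0.20), though these values rest on 86, 91 and 101 counts in dasatinib 1x and on 15 to 32 counts in the drug-free libraries.

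Ferritin transcripts stood higher at 1x. Ftl1, the light chain, had 967, 988 and 932 CPM in dasatinib 1x, against 597 CPM in DMSO 1x, 440 in DMSO 16x, and 635 and 617 in the parental libraries (log2 change 0.75 ± 0.11). Fth1, the heavy chain with the ferroxidase activity, had 938, 922 and 937 CPM in dasatinib 1x, against 772 in DMSO 1x, 729 in DMSO 16x, and 741 and 746 in the parental libraries (log2 change 0.32 ± 0.09). In either chain the groups were apart, and the light chain was the one further from the drug-free level. Ferritin genes have processed copies in the genome, and how reads shared with such copies were counted is not given in the sources used here. The listed paralog Ftl2 had at most 2 counts in a library.

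Hmox1 had 7.69, 8.27 and 7.19 CPM in dasatinib 1x, against 3.17 CPM in DMSO 1x, 3.32 in DMSO 16x, and 2.96 and 2.56 in the parental libraries (log2 change 1.36 ± 0.12). All dasatinib 1x libraries were above all drug-free ones. Its constitutive paralog Hmox2 averaged 50.0 ± 1.98 CPM in dasatinib 1x (SD, n = 3) and 48.3 ± 3.14 CPM in the drug-free libraries (SD, n = 4), with overlap. Slc40a1 was near the limit of detection, with 12, 13 and 34 counts in dasatinib 1x, against 12 counts in DMSO 1x, 2 in DMSO 16x, and 16 and 23 in the parental libraries. The sensors Aco1 (51.3 ± 1.36 CPM in dasatinib 1x, 50.3 ± 8.13 CPM drug-free) and Ireb2 (193 ± 9.31 CPM in dasatinib 1x, 199 ± 8.37 CPM drug-free) overlapped between the groups. At this step 3 members were called higher and 1 lower, and 5 did not overlap between the groups. Among all 12282 tested genes 1.96% were called (0.822% higher, 1.14% lower) and 23.6% did not overlap. Since earlier results of this comparison were known when the members were chosen, nothing is read from these counts.

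The comparison of dasatinib 16x with the drug-free libraries asks how these genes stood at the highest dose step sequenced. By edgeR's quasi-likelihood test with Benjamini-Hochberg adjustment over all 12282 genes, 4 members rose (Slc11a1, Hmox1, Ftl1 and Fth1), 1 fell (Tfrc), and 5 were not called. Of all tested genes 16.1% were called, 7.79% higher and 8.33% lower. The groups did not overlap for 6 members, where they did not for 28.3% of all genes. The median log2 change was 0.26 over the 10 members and -0.004 over all tested genes. The drug-free libraries are the same as in the comparison at 1x, so the 2 results are not independent of each other. At 1x Hmox1 and Tfrc were known when the members were chosen. For that reason nothing is read from setting these counts and this median beside those of all genes. The adjusted p-values of Hmox1 and Tfrc at 16x likewise are not independent of how these genes were chosen.

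Slc11a1 had the widest change, with 6.66, 6.64 and 4.96 CPM in dasatinib 16x A, B and C, while the drug-free libraries held 0.511 to 0.876 CPM. All dasatinib 16x libraries were above all drug-free ones, and library C was the lowest of them. Its log2 change was 3.05 ± 0.20 (adjusted p = 0.000211, higher in 3 of 3 libraries). Hmox1 had 13.2, 10.9 and 11.4 CPM in dasatinib 16x, while the drug-free libraries held 2.56 to 3.32 CPM, again without overlap (log2 change 1.97 ± 0.12, adjusted p = 0.000201). Neither paralog of these transporters and enzymes was called, as Slc11a2 averaged 19.8 ± 1.56 CPM in dasatinib 16x and 19.9 ± 0.968 CPM drug-free (log2 change -0.001 ± 0.07, adjusted p = 0.995), and Hmox2 averaged 45.7 ± 1.51 CPM in dasatinib 16x and 48.3 ± 3.14 CPM drug-free (log2 change -0.08 ± 0.06, adjusted p = 0.345). Within each library the ratio of Hmox1 to Hmox2 counts was 0.258 ± 0.0218 in dasatinib 16x (SD, n = 3) and 0.154 ± 0.00690 in dasatinib 1x (SD, n = 3), against 0.0623 ± 0.00732 in the drug-free libraries (SD, n = 4).

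Ftl1 rose at 16x to 1190, 1073 and 1161 CPM, with the drug-free libraries at 440 to 635 CPM (log2 change 1.00 ± 0.11, adjusted p = 0.000779). Fth1 had 1240, 902 and 1093 CPM in dasatinib 16x, against 729 to 772 CPM drug-free (log2 change 0.53 ± 0.09, adjusted p = 0.00433). Neither gene's groups overlapped, but the heavy chain varied more among the dasatinib 16x libraries (SD 170 CPM) than the light chain (SD 60.9 CPM), with library A highest and B lowest. The ratio of light to heavy chain counts was 1.07 ± 0.116 in dasatinib 16x and 1.03 ± 0.0389 in dasatinib 1x, against 0.765 ± 0.113 in the drug-free libraries, where it ran from 0.603 in DMSO 16x to 0.857 in parental A. In all 6 dasatinib libraries this ratio was above that of every drug-free library.

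Tfrc fell at 16x to 674, 719 and 724 CPM, with the drug-free libraries at 940 to 1024 CPM (log2 change -0.49 ± 0.04, adjusted p = 0.000247, lower in 3 of 3 libraries). Its spread was narrow on either side, with an SD of 27.7 CPM in dasatinib 16x and 35.7 CPM in the drug-free libraries. The summed ferritin counts over Tfrc counts, a ratio within a library, came to 3.61, 2.74 and 3.11 in dasatinib 16x A, B and C and to 2.30, 2.43 and 2.29 in dasatinib 1x A, B and C. In the drug-free libraries it was 1.46 in DMSO 1x, 1.14 in DMSO 16x, and 1.39 and 1.36 in the parental libraries. Storage and uptake transcripts thus stood in separate ranges of this ratio in the 3 classes.

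Ferroportin (Slc40a1) was not called at 16x. It had 35, 41 and 24 counts in dasatinib 16x, or 0.573 to 1.00 CPM, and 0.0536 to 0.550 CPM when drug-free (log2 change 1.08 ± 0.58, adjusted p = 0.235). The groups were apart by a narrow margin and the drug-free end was set by DMSO 16x with 2 counts. Against DMSO 16x alone the log2 change was 3.79 ± 0.87 (adjusted p = 0.0047), and against the parental libraries alone it was 0.51 ± 0.44 (adjusted p = 0.427). The sensors were not called either, with Aco1 at 47.8 ± 6.38 CPM in dasatinib 16x and 50.3 ± 8.13 CPM drug-free (log2 change -0.07 ± 0.13, adjusted p = 0.743), and Ireb2 at 186 ± 3.32 CPM in dasatinib 16x and 199 ± 8.37 CPM drug-free (log2 change -0.10 ± 0.04, adjusted p = 0.166). Against the parental libraries alone Ireb2 was called lower (log2 change -0.14, adjusted p = 0.0206). Of the members with a hairpin match in the 5′ UTR, Fth1 and Ftl1 rose and Slc40a1 was not called, and Tfrc, with its matches in the 3′ UTR, fell.

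**Figure D2:**
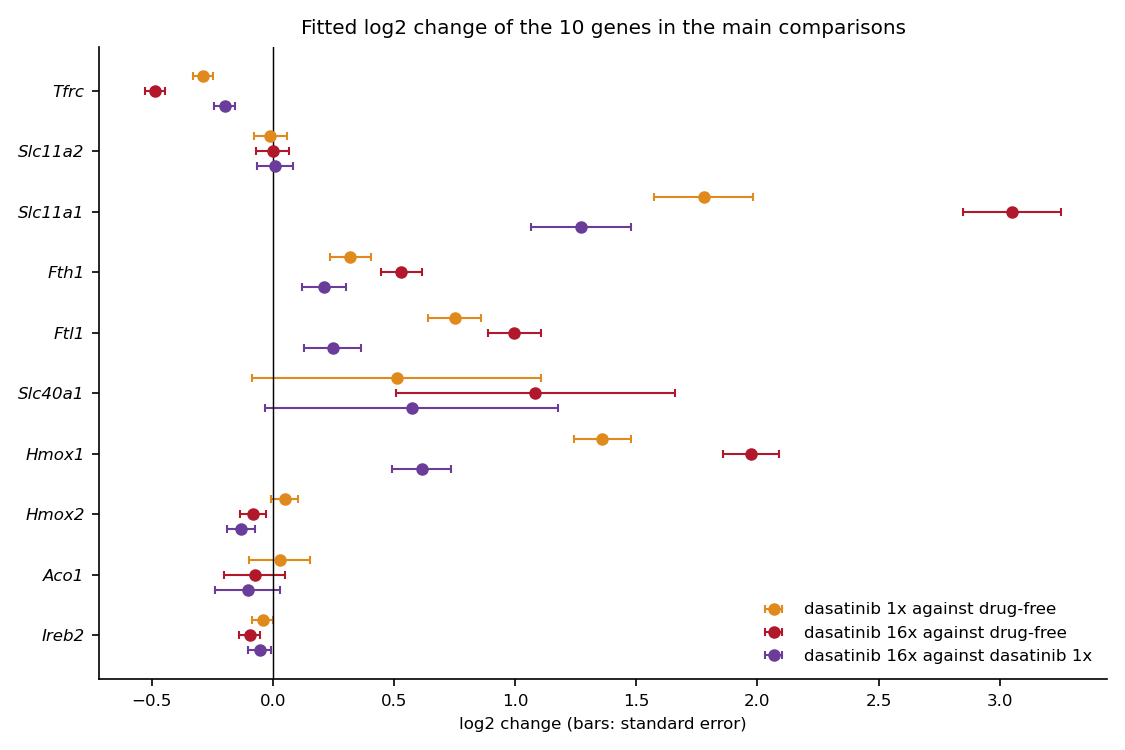
Fitted log2 change (horizontal axis) of the 10 genes in the 3 main comparisons, with bars of 1 standard error. Slc11a1 and Hmox1 show the widest changes (3.05 and 1.97 at 16x against drug-free), Tfrc lies below 0 in each comparison, and the bars of Slc40a1 are the widest.

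The next comparison set dasatinib 16x against dasatinib 1x, to ask which members differed between the dose steps under the drug. Slc11a1 rose further, to 6.09 ± 0.973 CPM in dasatinib 16x against 2.52 ± 0.217 CPM in dasatinib 1x (SD, n = 3 each; log2 change 1.27 ± 0.21, adjusted p = 0.0181 by edgeR). Hmox1 rose to 11.8 ± 1.20 CPM in dasatinib 16x against 7.72 ± 0.545 CPM in dasatinib 1x (log2 change 0.61 ± 0.12, adjusted p = 0.0366). These 2 were the called members, and 2.13% of all genes were called, 1.21% higher and 0.928% lower. The dasatinib 1x libraries, in which Hmox1 and Tfrc were known, enter this comparison, so nothing is read from these shares. The call of Slc11a1 was lost without any 1 of the dasatinib 1x libraries or without dasatinib 16x A (adjusted p 0.0545 to 0.1). That of Hmox1 was lost without any 1 of the 6 dasatinib libraries, without DMSO 1x and without parental A (adjusted p 0.0565 to 0.181).

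Tfrc averaged 706 ± 27.7 CPM in dasatinib 16x and 810 ± 22.2 CPM in dasatinib 1x, with no overlap, and just missed the threshold (log2 change -0.20 ± 0.04, adjusted p = 0.0517). It was called lower without DMSO 16x (adjusted p = 0.0134), as it was by DESeq2 (adjusted p = 0.000711). Ftl1 averaged 1141 ± 60.9 CPM in dasatinib 16x and 962 ± 28.4 CPM in dasatinib 1x, also without overlap but not called (log2 change 0.25 ± 0.12, adjusted p = 0.354), and was called without DMSO 16x (adjusted p = 0.0074). For Fth1 the steps overlapped, at 1078 ± 170 CPM in dasatinib 16x and 932 ± 9.36 CPM in dasatinib 1x (adjusted p = 0.306), and without dasatinib 16x B it was called higher (log2 change 0.32, adjusted p = 0.0299). Hmox2 lay lower in every dasatinib 16x library than in every dasatinib 1x library (log2 change -0.13 ± 0.06, adjusted p = 0.317) and was not called. In all, 5 members had no overlap between the steps, against 30.6% of all genes. Nothing is read from this count either.

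Read across the classes from drug-free to 1x to 16x, Slc11a1, Hmox1 and Ftl1 climbed at each step with no library of one class overlapping the next, and Tfrc descended in the same way. Among all tested genes 1.99% climbed and 1.97% descended without overlap. This order includes the step to 1x, at which Hmox1 and Tfrc were known when the members were chosen, so nothing is read from the comparison with these shares.

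The DMSO lines show how these genes moved when the line was carried without drug. Each DMSO group is a single library, so its spread was taken to be that of the other groups. In DMSO 1x against parental no member was called by edgeR's quasi-likelihood test (0 of 10, 3 at an unadjusted p under 0.05, and 0 by DESeq2 and by limma-voom), where 6.17% of all genes were (3.31% higher, 2.87% lower). In DMSO 16x against parental 1 member was called higher and 2 lower, where 30.9% of all genes were called (14.7% higher, 16.2% lower), a share close to that of the members. Ftl1 fell to 440 CPM in DMSO 16x, against 635 and 617 CPM in the parental libraries (log2 change -0.51 ± 0.06, adjusted p = 5.38e-05). Slc40a1 fell to 2 counts in DMSO 16x, against 16 and 23 counts in parental A and B, a ratio of 0.0978 with a 95% counting interval of 0.0114 to 0.378 that covers counting error only (adjusted p = 0.0176, and 0.0545 without parental B). Aco1 rose to 60.0 CPM in DMSO 16x, against 42.4 and 44.9 CPM in the parental libraries (log2 change 0.46 ± 0.13, adjusted p = 0.0252), and lost the call without parental A (adjusted p = 0.105) or B (adjusted p = 0.0617). Hmox1 had 3.32 CPM in DMSO 16x and 2.76 ± 0.287 CPM in the parental libraries (adjusted p = 0.297), and Tfrc 1024 CPM in DMSO 16x and 996 ± 12.4 CPM in the parental libraries (adjusted p = 0.603).

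The step from 1x to 16x was then compared between the arms, as the change under dasatinib minus the change in DMSO. The dasatinib 1x libraries, in which Hmox1 and Tfrc were known, enter it, so nothing is read from the share of members called. Ftl1 differed, with a log2 change of 0.25 ± 0.04 from 1x to 16x under dasatinib and -0.44 ± 0.07 in DMSO (difference 0.69 ± 0.08, adjusted p = 0.000531 by edgeR). Tfrc differed in the other direction, with -0.20 ± 0.03 under dasatinib and 0.12 ± 0.06 in DMSO (difference -0.32 ± 0.07, adjusted p = 0.0161). These were 2 of 10 members, 1 higher and 1 lower, where 6.74% of all genes were called, 5.37% higher and 1.37% lower. For Hmox1 the steps were 0.61 ± 0.11 under dasatinib and 0.07 ± 0.21 in DMSO (difference 0.55 ± 0.24, adjusted p = 0.237), and for Slc11a1 1.27 ± 0.17 under dasatinib and -0.03 ± 0.36 in DMSO (difference 1.30 ± 0.40, adjusted p = 0.0797). Neither passed, and without dasatinib 16x C the difference of Slc11a1 was called (adjusted p = 0.0439). Fth1 was not called (difference 0.29 ± 0.22, adjusted p = 0.575), but it was without dasatinib 16x B (difference 0.40, adjusted p = 0.0121).

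**Figure D3:**
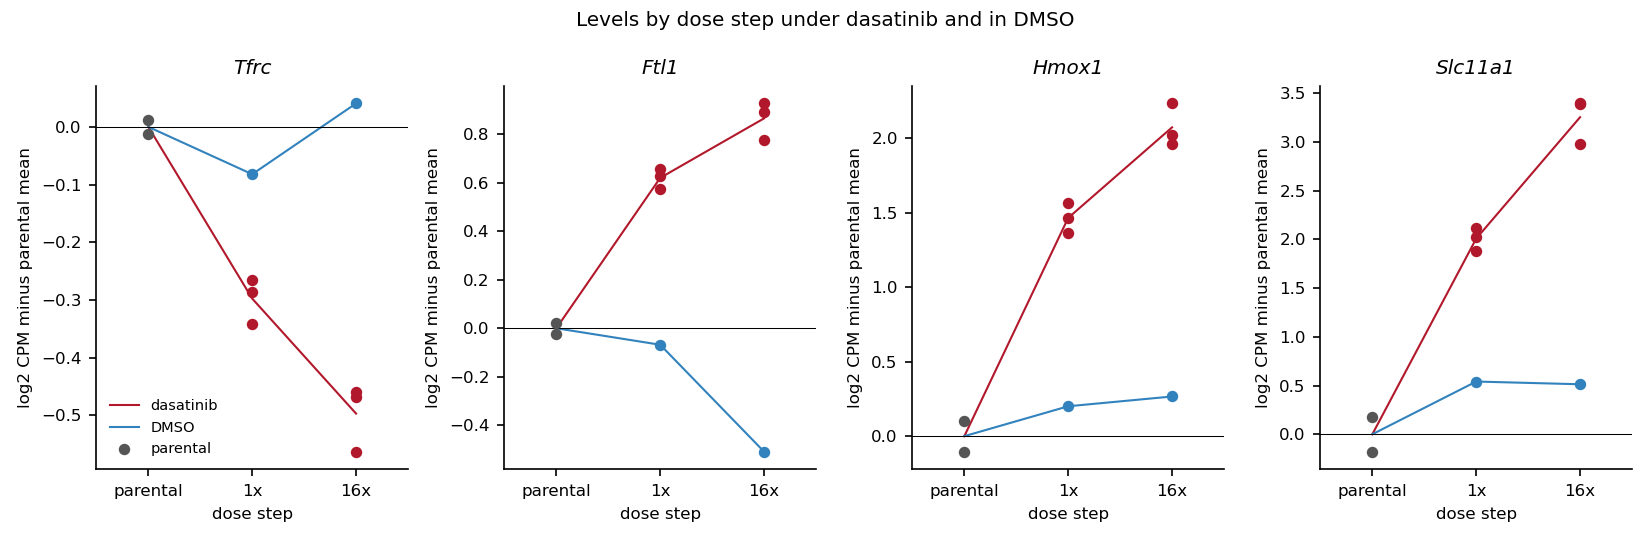
Levels of Tfrc, Ftl1, Hmox1 and Slc11a1 as log2 CPM minus the parental mean (vertical axis) in the parental line and at steps 1x and 16x (horizontal axis). Points are libraries and lines join the means of the dasatinib and the DMSO arm. Under dasatinib Tfrc goes down and the other genes go up at each step, while Ftl1 in DMSO 16x lies below the parental level.

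Slc11a1 and Hmox1 are also genes of macrophages and Tfrc is abundant in erythroid precursors, so markers of those cells were read in the same libraries. Of 18 macrophage and myeloid markers, 14 stayed under 1 CPM in all libraries, and 8 of these, among them C1qa, Marco and S100a8, had no counts. Csf1r reached at most 0.319 CPM. The summed markers came to 49.4 to 53.4 CPM in dasatinib 1x and 62.4 to 73.3 CPM in dasatinib 16x, with 40.1 to 63.6 CPM for the drug-free libraries, and most of it was Mrc1 (52.5 ± 3.59 CPM in dasatinib 16x, 51.6 CPM in DMSO 16x and 30.1 ± 0.195 CPM in the parental libraries). The Fc receptor gene Fcgr3 was the 1 of 5 tested myeloid markers called higher at 16x (adjusted p = 0.0343 by edgeR). It had 10.5, 6.64 and 5.51 CPM in dasatinib 16x A, B and C and 2.84 ± 0.124 CPM in dasatinib 1x. Drug-free values were 3.17 CPM in DMSO 1x, 4.45 in DMSO 16x and 1.52 ± 0.555 in the parental libraries. Unlike Slc11a1 and Hmox1, Fcgr3 thus did not stand above the drug-free libraries at 1x. The other tested myeloid markers were not called at 16x. Their log2 changes were -1.14 (Itgam), -0.17 (Cd68), 0.20 (Lyz2) and 0.51 (Mrc1). Of 13 erythroid markers 10 stayed under 1 CPM, with 2 counts of Slc4a1 over all libraries. Their sum was 22.0 to 25.1 CPM in dasatinib 1x and 28.5 to 40.6 CPM in dasatinib 16x, with 14.5 to 40.0 CPM for the drug-free libraries. Spna1, erythroid alpha-spectrin, had 8.33, 5.12 and 2.67 CPM in dasatinib 16x and 6.76 to 10.7 CPM in dasatinib 1x, and at most 0.120 CPM in any drug-free library, which is 5 counts or fewer (adjusted p = 0.000354 at 16x). The globin gene Hbb-b1 had 22.4 ± 5.49 CPM in dasatinib 16x and 3.87 ± 0.373 CPM in dasatinib 1x, with 34.4 CPM in DMSO 16x, 11.2 CPM in DMSO 1x and 4.22 ± 0.250 CPM in the parental libraries (adjusted p = 0.491 at 16x against drug-free, and 0.132 against 1x). The megakaryocyte markers summed to at most 2.09 CPM. Of 3 that were tested, Gp9 was called higher at 16x (adjusted p = 0.0105 by edgeR). Gp1ba (log2 change -0.85 ± 0.39) and Itga2b (-0.17 ± 0.56) were not called, and Gp1bb and Ppbp had no counts. The part of these cells in the changes of the members was not tested.

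Of 90 other listed genes of iron and haem handling, 65 were tested. These lists too were chosen with earlier results of these data known, so a share above that of all genes is not read as a result about them. At 16x against drug-free 11 rose, 2 fell and 52 were not called, or 20% called where 16.1% of all genes were, and their median log2 change was 0.08. At 1x 2 were called higher (Nqo1, log2 change 2.69 ± 0.40, and Gsr, 0.38 ± 0.06) and 1 lower (Pcbp3), or 4.62%, where 1.96% of all genes were called. None of the 3 was called without DMSO 1x, dasatinib 1x A or dasatinib 1x B, and the count ran from 0 to 8 with a library left out, the highest without DMSO 16x. In 16x against 1x 0 of 65 were called by edgeR's quasi-likelihood test (10 at an unadjusted p under 0.05, and 4 by DESeq2).

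The lists are small, and their shares called at 16x are to be read beside the 16.1% of all genes. Among the uptake genes 1 of 3 tested was called at 16x. This was Slc39a14, a zinc transporter that also carries iron not bound to transferrin, with 65.3 ± 5.53 CPM in dasatinib 16x and 46.0 ± 4.59 CPM drug-free (log2 change 0.51 ± 0.08, adjusted p = 0.00404). Of 6 haem transport and breakdown genes 1 rose (16.7%), Slc48a1, which moves haem out of endosomes (60.1 ± 1.82 CPM in dasatinib 16x, 48.5 ± 3.61 CPM drug-free, log2 change 0.31 ± 0.06, adjusted p = 0.00832). Of 12 genes of haem synthesis 2 rose and 1 fell (25% called). Those that rose were the mitochondrial transporters Abcb10 (log2 change 0.27 ± 0.06, adjusted p = 0.0165) and Abcb6 (0.19 ± 0.05, adjusted p = 0.029). Abcb10 lost the call without dasatinib 16x A (adjusted p = 0.0601) or B (0.0508), and Abcb6 without any 1 of the dasatinib 16x or parental libraries or dasatinib 1x B (0.0504 to 0.0919). Against DMSO 16x alone the log2 change of Abcb6 was 0.13. The gene that fell was Fech, ferrochelatase, which inserts iron into the ring in the last step, with 5.30 ± 1.08 CPM in dasatinib 16x and 12.3 ± 4.84 CPM drug-free (log2 change -1.21 ± 0.28, adjusted p = 0.0198). Fech was highest in DMSO 16x (19.0 CPM) and lost the call without dasatinib 16x A (adjusted p = 0.0815) or B (adjusted p = 0.0659). The first enzymes of the pathway were not called, Alas1 (log2 change 0.21 ± 0.09, adjusted p = 0.127) and its erythroid form Alas2 (-0.32 ± 0.27, adjusted p = 0.456). Alas1 was called higher without DMSO 16x (adjusted p = 0.0193), without dasatinib 16x A (0.0477), against the parental libraries alone (log2 change 0.31, adjusted p = 0.0165) and with a replicate block (0.0277).

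Iron-sulfur assembly had 3 of 22 genes higher and none lower at 16x, or 13.6% called, near the share of all genes. They were the scaffold Iscu (110 ± 0.520 CPM in dasatinib 16x, 84.6 ± 10.0 CPM drug-free, log2 change 0.38 ± 0.08, adjusted p = 0.012), the assembly factor Isca2 (0.21 ± 0.05, adjusted p = 0.0235) and the cysteine desulfurase Nfs1 (0.16 ± 0.04, adjusted p = 0.0255). Isca2 was not called without DMSO 1x, dasatinib 16x A, dasatinib 16x B or parental A (adjusted p 0.053 to 0.0751). It was also not called against the parental libraries alone (log2 change 0.18) or with a replicate block (0.19, adjusted p = 0.0553 by edgeR). Nfs1 was not called without DMSO 1x or any 1 of the dasatinib 16x or parental libraries (0.0542 to 0.096). Against DMSO 16x alone its log2 change was 0.08. In the storage list Pcbp4 rose (0.54 ± 0.12, adjusted p = 0.0191) and Pcbp3 fell among 5 genes, both RNA-binding proteins, and Pcbp4 lost the call without dasatinib 16x A (adjusted p = 0.0744) or C (0.0547). Pcbp3 had 0 counts in all 6 dasatinib libraries, and 0.375 to 1.02 CPM in drug-free libraries. It was at least 33.0-fold lower at 16x when a group at 0 is set to a floor of 3 counts in total (adjusted p = 0.00524). Ncoa4, the receptor that sends ferritin to lysosomes, was not called (-0.02 ± 0.05, adjusted p = 0.803), nor was Fbxl5, which targets IRP2 for decay in iron-replete cells (-0.001 ± 0.06, adjusted p = 0.995). No gene of the export list was called (0 of 3 at 16x).

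BACH1 represses Hmox1 and both ferritin genes, and NRF2 (Nfe2l2) activates them. Of 14 tested genes in their list 3 rose at 16x and none fell (21.4% called). Nqo1, a quinone reductase, had 0.715 ± 0.143 CPM in dasatinib 16x and 0.179 ± 0.0939 CPM drug-free (log2 change 2.01 ± 0.41, adjusted p = 0.0115), from 4 to 9 counts in each drug-free library. Gsr, glutathione reductase, had 90.3 ± 6.64 CPM in dasatinib 16x and 65.4 ± 3.63 CPM drug-free (log2 change 0.47 ± 0.06, adjusted p = 0.00181), and Gclm, a subunit of the enzyme that starts glutathione synthesis, had 62.8 ± 3.52 CPM in dasatinib 16x and 52.8 ± 1.08 CPM drug-free (log2 change 0.25 ± 0.04, adjusted p = 0.00618). The regulators were not called at 16x, Bach1 at 45.2 ± 6.08 CPM in dasatinib 16x and 49.6 ± 7.64 CPM drug-free (adjusted p = 0.513) and Nfe2l2 at 84.2 ± 3.11 CPM in dasatinib 16x and 77.9 ± 12.8 CPM drug-free (adjusted p = 0.533). Both depended on the reference. Bach1 was called lower against the parental libraries alone (log2 change -0.29, adjusted p = 0.0409) and with a replicate block (-0.27, adjusted p = 0.0292), and its log2 change ran from -0.29 to 0.21 over all alternatives. Nfe2l2 had a log2 change of 0.45 against DMSO 16x alone and of 0.19 in the fit of 5 groups. Over all alternatives it ran from -0.07 to 0.45, and the parental libraries held 88.1 ± 1.22 CPM of Nfe2l2.

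**Figure D4:**
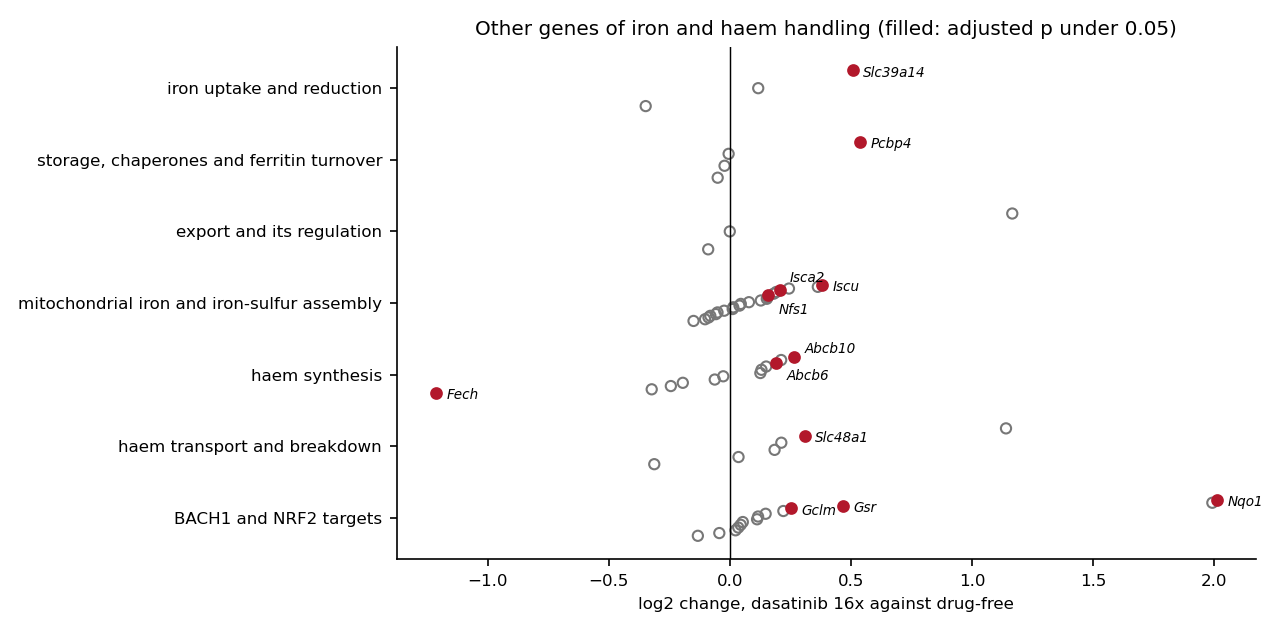
Log2 change at dasatinib 16x against drug-free (horizontal axis) of 64 tested genes in 7 lists of iron and haem handling. Filled points have an adjusted p under 0.05, and Pcbp3, with no counts under dasatinib, is left out. Of the filled points only Fech lies left of 0, and Nqo1 lies farthest right at 2.01.

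Genes with the most similar pattern were named by Pearson's r of log2 CPM over the 10 libraries, which share the group structure, so a high r is a description of likeness. For Hmox1 they were Dusp3 (0.987), Serpinb9 (0.984) and Slc22a8 (0.979), and for Slc11a1 they were Pycr1 (0.982), Cry1 (0.981) and Hmox1 itself (0.978). Tfrc was most like Smcr8 (0.982), Btbd3 (0.980) and Zfp629 (0.979). Ftl1 was nearest to Ptgir (0.990), Pla2g4a (0.987) and Cops4 (0.986), and Fth1 to Mta2 (0.994), Arhgap18 (0.983) and Plp2 (0.981). Aco1 was nearest to Etv5 (0.949), Lgals9 (0.942) and Dhrs4 (0.927). For Slc40a1, at its low counts, the nearest were Ppm1b (0.945), Zfp513 (0.944) and Rsad1 (0.943).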

How the data were processed

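RNA sequencing counts per gene were analysed for 10 libraries. Per the submitters' processing notes, CASAVA 1.7.0, Trimmomatic 0.33, TopHat2 2.0.12, BWA 0.7.10, SAMtools, HTSeq 0.6.1 and DESeq were used with mm9. The deposited values are raw counts of reads per gene. No source used here gives the annotation, the strand setting or how shared reads were treated, and reads of a gene and its antisense or overlapping neighbour may be mixed. Genes passing filterByExpr at a minimum count of 10 were tested by edgeR 4.0.16 (robust quasi-likelihood test, TMM scaling, R 4.3.3), with Benjamini-Hochberg adjustment over all tested genes at 0.05. The comparisons among dasatinib 1x, dasatinib 16x and drug-free used 3 classes, and those with a single DMSO library used 5 groups. DESeq2 1.42.0, limma 3.58.1 (voom), RLE scaling, no filter, other references, a replicate block and leaving out each library were the alternatives. Log2 CPM for likeness used a prior count of 2. The procedure was run on simulated data in which all genes had the same spread. For the main comparisons the simulated drug-free libraries did not differ by line, unlike those here. The accuracy of the main tests on such data was therefore not checked. All 10 members, the called pathway genes with the 3 smallest p-values per list, Bach1, Nfe2l2, Fbxl5, Ncoa4, Alas1, Alas2 and Fech were named by rule, likewise the 3 genes most like each member called in a comparison. The members and lists were chosen with earlier results of these data known.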

Additional observations from a re-analysis of the deposited data

Results flagged for a closer look

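For Hmox2, the 4 drug-free libraries held 1 that stood apart, DMSO 1x with 53.0 CPM, against 46.3 CPM in DMSO 16x and 47.0 and 47.1 CPM in the parental libraries. Chance sets a library apart by this measure in about 1 in 20 groups, and 10 genes were examined.

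For Ftl1 the change from 1x to 16x differed between the arms by 0.69 on the log2 scale, as dasatinib minus DMSO, and for Tfrc by -0.32. Each arm of DMSO is a single library per step, and the size of these differences over all alternatives was 0.65 to 0.73 for Ftl1 and -0.35 to -0.30 for Tfrc.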

How the results depend on the processing

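No member changed direction where either value passed the test, in 900 recomputed values. Of these, 859 kept their side of the threshold, 23 lost a call and 18 gained one, while 29 values changed sign with neither passing. At 16x against drug-free the same 5 members were called whichever library was left out. Under the other settings 5 or 6 members were called, and with the replicate block Ireb2 was called and Fth1 was not. At 1x the count of called members, 4, was 2 to 5 with a library left out, the lowest without any 1 of the dasatinib 1x libraries. In 16x against 1x the 2 calls became 4 with a fit of 5 groups and 4 with a replicate block, and 0 to 4 with a library left out (0 without any 1 of dasatinib 1x A, B, C or dasatinib 16x A, and 4 without DMSO 16x). For DMSO 1x the count was 0 to 1 (Aco1 without dasatinib 16x C), for DMSO 16x against parental 1 to 3 (1 without parental B), and for the difference between the arms 2 to 3.

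Counts over all genes moved more. At 1x 241 genes were called, against 853 by DESeq2, 150 by limma-voom, 3449 in the fit of 5 groups, 708 with the parental and 1661 with the DMSO library as reference, 536 with the replicate block and 17 to 516 with a library left out. At 16x 1980 became 4542 in the fit of 5 groups, 3252 with the parental and 4382 with the DMSO library as reference, and 1005 to 2765 with a library left out. For 16x against 1x 262 became 805 by DESeq2, 1669 in the fit of 5 groups, 1124 with the block and 41 to 978. For DMSO 1x, 758 became 110 to 1410, and the 828 of the difference between the arms 538 to 1248. Of the 65 other iron and haem genes, the 3 calls at 1x became 7 by DESeq2, 22 in the fit of 5 groups, 8 with the parental and 13 with the DMSO library as reference, 7 with the block and 0 to 8 with a library left out. The 13 calls at 16x became 21 by DESeq2, 32 in the fit of 5 groups, 26 with either reference, 23 with the block and 8 to 22 with a library left out. The fitted coefficient of variation was 15.3% with all drug-free libraries in 1 class and 7.27% in the fit of 5 groups. Its part in these counts was not tested.

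The labels do not say whether replicate letters pair the dasatinib 1x and 16x libraries, and the main tests used no pairing. The deviations of same-lettered dasatinib 16x and 1x libraries from their group means correlated at 0.0647 (A), 0.0273 (B) and 0.0517 (C), each library best with its own letter. With the block against the parental libraries, Fth1 at 16x had an adjusted p of 0.0505 and Ireb2 one of 0.0187, and in 16x against 1x Tfrc (0.0217) and Ftl1 (0.0138) were called. Low counts limit Slc40a1, Slc11a1 and Nqo1.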

Other observations

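In the DMSO 16x line 12 of 65 other tested genes of iron and haem handling stood higher than in the parental line and 9 lower, or 32.3%, where 30.9% of all genes were called. Fech was among those higher, with 19.0 CPM in DMSO 16x against 8.73 ± 0.202 CPM in the parental libraries (SD, n = 2; log2 change 1.12 ± 0.20, adjusted p = 0.00104 by edgeR). Nfe2l2 was lower in DMSO 16x, at 61.7 CPM against 88.1 ± 1.22 CPM in the parental libraries (log2 change -0.51 ± 0.06, adjusted p = 2.33e-05), and also in DMSO 1x, at 73.8 CPM (adjusted p = 0.0181, and 0.0851 without parental A or 0.141 without parental B). Bach1 was lower in DMSO 16x, at 39.2 CPM against 55.3 ± 0.628 CPM in the parental libraries (log2 change -0.50 ± 0.12, adjusted p = 0.014, and 0.0552 without parental A or 0.051 without parental B). These rest on a single DMSO library per step.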
